A study of Papio hamadryas with 160 samples.

Results

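hsa-miR-7-5p and hsa-miR-375, a pair of miRNAs best known from hormone-secreting cells, were followed through small RNA libraries of blood and brain from 10 baboons (Papio hamadryas). They were chosen by name as 2 of the 362 miRNAs measured. The libraries numbered 76, of which 10 came from peripheral blood mononuclear cells (PBMC), which are mostly lymphocytes with some monocytes, and 66 from 14 brain regions.

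Group A comprised 4 adult females (A1 to A4) euthanized with pentobarbital, whose brain tissue was frozen in 2-methylbutane. Its 27 brain libraries covered the hypothalamus taken at the paraventricular nucleus (PVN), the amygdala (AMG), the dorsal anterior cingulate (dACC), medial and lateral orbitofrontal (mOFC, lOFC), dorsomedial prefrontal (dmPFC) and posterior cingulate (PCC) cortex. Group B comprised 5 males and 1 younger female (B1 to B6) euthanized by exsanguination under anesthesia, whose brain tissue was frozen in liquid nitrogen. Its 39 brain libraries covered the entorhinal (EC), dorsolateral prefrontal (dlPFC), motor (MC), posterior parietal (PPC) and occipital (OC) cortex, the hippocampus (HC) and the cerebellum (CB). All animals were captive baboons sedated with ketamine before blood was drawn. Earlier in life they had been enrolled in other studies that differed from animal to animal, and those of Group B served as controls in a pregnancy study. No region was shared by the groups, so region, sex, age, euthanasia and freezing cannot be told apart between them, and regions were compared only within a group.

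A mature miRNA guides a silencing complex to partly matching messenger RNAs. miR-7 is an old, highly conserved miRNA made from several hairpins that all give the same 5′ arm, and it is abundant in neurosecretory cells of the hypothalamus, in the pituitary and in pancreatic islets. In brain it is bound at many sites by the circular RNA CDR1as, which in turn can be cleaved under the direction of miR-671-5p. miR-375 is best known as the islet miRNA that restrains insulin release in mice, and it is also abundant in the pituitary.

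Values were in RPM, the reads of a miRNA scaled to a common total of mapped miRNA reads per library. In Group A, recovered totals ran from 1584760 to 4899930 reads per PBMC library and from 1934418 to 6966017 per brain library. In Group B they ran from 707977 to 1208337 per PBMC library and from 1425622 to 7036382 per brain library. hsa-miR-7-5p rested on 106 to 10143 reads in every brain library. hsa-miR-375 rested on only 7 to 21 reads in PBMC of Group B, so its blood values there carry the widest counting error, and on 15 to 321 reads in the brain libraries of that group. In Group A it rested on 32 to 116 reads in PBMC and 51 to 3182 in brain. In B1, for example, 7 reads gave 9.89 RPM in PBMC with a 95% exact binomial interval of 3.98 to 20.4 RPM. Such intervals cover counting error only, since reads amplified by PCR are not independent molecules. Brain tissue carried the miRNAs of its cell types. The 6 neuronal miRNAs checked (hsa-miR-124-3p among them) ran from 581 to 1044 RPM in total in Group A PBMC, but from 32929 to 69510 RPM in brain. The 5 leukocyte miRNAs summed to 63215 to 140966 RPM in the same PBMC, but in brain to 279 to 941 RPM. The library labelled AMG of A3 stood apart from the other AMG libraries. Its rank correlation over the 362 miRNAs was 0.98 to 0.99 with the cortical libraries of A3 and 0.94 with the PVN, whereas those of A1 and A2 gave 0.93 to 0.97 with cortex and 0.96 and 0.95 with the PVN. Values that rest on this library, or on the mOFC library of A3, are given without both where they change. In these tissue samples, fewer cells of a type and less RNA per cell cannot be told apart.

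hsa-miR-7-5p was highest in the PVN of Group A and the EC of Group B, and lowest in the CB and OC. In the PVN it measured 3194, 1984, 2031 and 2332 RPM in A1 to A4, which made it the 45th to 60th most abundant miRNA of those libraries. In the other 23 brain libraries of Group A it lay between 328 and 1588 RPM, so that no other library reached the PVN. The highest of these were the mOFC and dACC of A4, at 1588 and 1388 RPM.

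**Figure D1:**
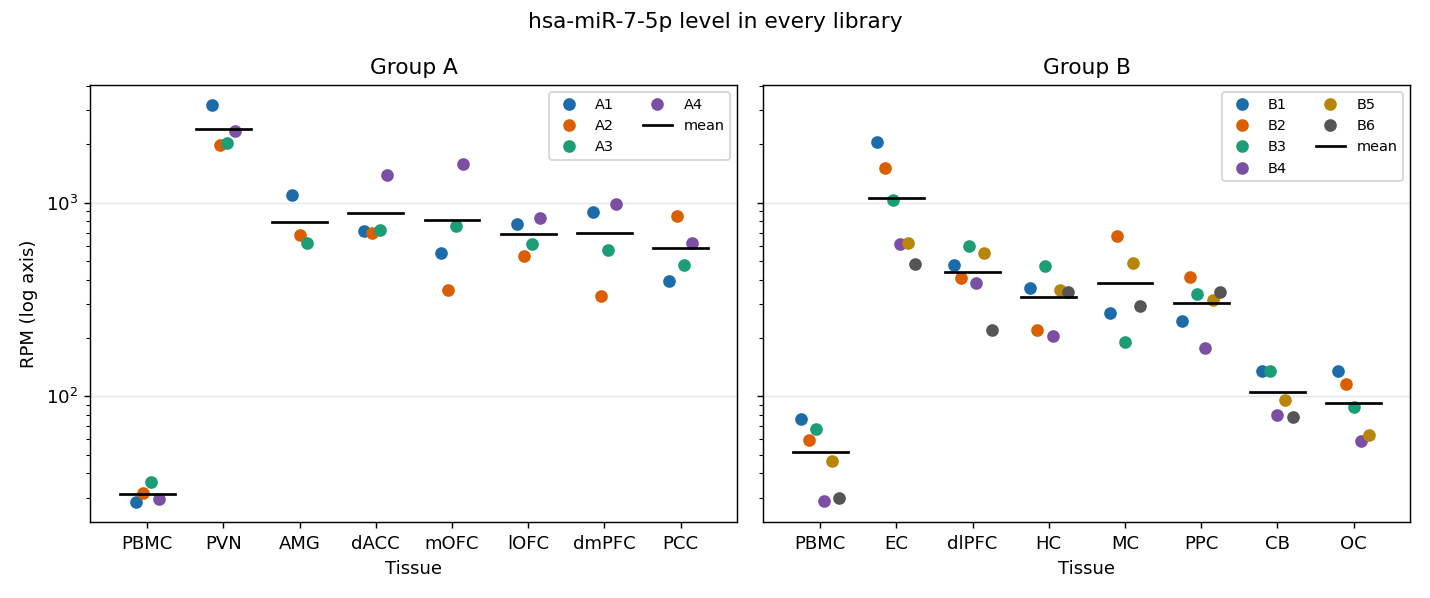
Level of hsa-miR-7-5p (RPM, log axis) in PBMC and each brain region of Group A (left) and Group B (right), 1 point per animal and a bar at the mean. The 4 PVN libraries sit between 1984 and 3194 RPM, above all other brain libraries of Group A, and the 6 EC libraries spread from 479 to 2051 RPM.

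Each PVN library exceeded the mean of the other regions of its animal, by 2.19, 1.88, 1.71 and 1.19 on the log2(RPM + 1) scale in A1 to A4. Across the 4 animals the fitted difference was 1.73 (95% confidence interval 1.23 to 2.23, limma adjusted p = 1.54e-06). The PVN differed widely from the rest of the brain: 72.7% of the 362 miRNAs were called there, 227 higher and 36 lower, and the median of all miRNAs was itself raised by 0.52. Relative to that median, hsa-miR-7-5p was 1.21 higher in the PVN, and a scaling by median of ratios gave 1.20 (adjusted p = 6.88e-05), with a median over all miRNAs of 0.01 and 126 miRNAs higher against 120 lower.

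Outside the PVN, the regions of Group A could hardly be ordered by hsa-miR-7-5p. The means were 880 ± 339 RPM in the dACC, 812 ± 544 in the mOFC, 797 ± 262 in the AMG, 694 ± 302 in the dmPFC, 687 ± 143 in the lOFC and 585 ± 199 in the PCC, against 2385 ± 561 in the PVN (SD, n = 4, and 3 for the AMG). Of the 21 pairs of regions, the 6 that include the PVN were called and none of the other 15 was. Over all pairs and miRNAs of Group A 23.7% were called. The p-values were adjusted over miRNAs within a pair and not over the 42 pairs of both groups.

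Against the mean of the other 6 regions, the AMG (8.84% of miRNAs called), dmPFC (18.8%) and lOFC (6.35%) gave no call for hsa-miR-7-5p. The PCC (37% called) differed by -0.67 (interval -1.17 to -0.17, adjusted p = 0.033), a call that was lost under 6 other settings and without A1, A3 or A4, where the difference was between -0.66 and -0.44. The dACC and mOFC had 0% of miRNAs called by limma, with 39 and 30 at an unadjusted p under 0.05. There edgeR called 11 and 1 miRNAs, DESeq2 14 and 1.

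In Group B the EC stood where the PVN stood in Group A, but with a much wider spread over animals. hsa-miR-7-5p measured 2051 RPM in the EC of B1, 1513 in B2 and 1027 in B3, and 610, 619 and 479 RPM in B4, B5 and B6. The EC values of B4, B5 and B6 lay inside the range of the other 33 brain libraries, 58.6 to 673 RPM. Those of B1, B2 and B3 were above their maximum. Within each of the 6 animals the EC nevertheless held more than the mean of the other regions, by 1.08 to 3.07 on the log2 scale.

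The fitted difference of the EC was 2.05 (interval 1.62 to 2.48, adjusted p = 9.99e-10), the 4th largest of the 362 miRNAs, in a comparison that called 63.5% of them. Relative to the median of all miRNAs the difference was 1.84.  Of the 6 neuronal miRNAs 4 rose and 1 fell there, where 49.2% of all miRNAs rose. Among those that rose was hsa-miR-137, at 2.40 (adjusted p = 1.88e-14). The summed level of the 6 was 48728 to 71295 RPM in the EC, within the 41155 to 71876 RPM of the other regions. All 4 oligodendrocyte miRNAs fell in the EC, where 52 of the 362 miRNAs fell. Their summed level was 3790 to 7743 RPM there and 2927 to 12893 RPM elsewhere. The part of the neuronal and oligodendrocyte miRNAs in the result was not tested.

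The OC and CB held the least hsa-miR-7-5p of the regions of Group B. In the OC it measured 135, 116, 88.2, 58.6 and 63.1 RPM in B1 to B5, and in the CB 136, 135, 80.6, 96.0 and 78.4 RPM in B1, B3, B4, B5 and B6. In every animal both were below the mean of the other regions. The OC value differed by -1.96 (interval -2.43 to -1.49, adjusted p = 2.31e-08, 51.7% of miRNAs called), the 3rd lowest difference of all miRNAs in that region, and that of the CB by -1.54 (interval -2.01 to -1.07, adjusted p = 3.52e-07, 84% called).

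The median of all miRNAs was -0.18 in the OC and -0.49 in the CB. Relative to it the difference of hsa-miR-7-5p was -1.78 in the OC and -1.05 in the CB. Without the EC among the other regions the CB difference was -1.25 and the OC difference -1.64, both still called. Most miRNAs differed in the CB, where 89 of the 362 rose and 215 fell (84% called), and cell type miRNAs were among them. All 4 oligodendrocyte miRNAs were lower, and summed to 2927 to 3652 RPM against 3790 to 12893 RPM in the other regions. hsa-miR-137, a neuronal miRNA, differed by -7.18 (adjusted p = 7.18e-28). Of the 6 neuronal miRNAs 3 fell and 2 rose there, a share called near that of all miRNAs. Those that rose were hsa-miR-124-3p, by 0.91 (adjusted p = 5.71e-10), and hsa-miR-218-5p, by 0.47 (adjusted p = 0.0013). The median of the 6 was -0.34 beside -0.49 over all miRNAs. Their sum, 50283 to 63750 RPM, lay within that of the other regions (41155 to 71876 RPM), and 1 was at 0 in the CB of B5. What part these take in the CB value was not tested.

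The pairs of Group B fell into 3 levels of hsa-miR-7-5p. The EC averaged 1050 ± 620 RPM (SD, n = 6) and differed from all 6 other regions. The dlPFC, MC, HC and PPC averaged 440 ± 136, 383 ± 195, 325 ± 98.3 and 305 ± 82.9 RPM, and none of the 6 pairs among them was called. The CB and OC averaged 105 ± 28.3 and 92.1 ± 33.2 RPM (SD, n = 5 each) and did not pass the test against each other, with an OC minus CB difference of -0.36 (interval -0.98 to 0.26). In all, 14 of 21 pairs were called, against 45.5% of all pairs and miRNAs of the group. From the lowest to the highest region mean the span was 11.4-fold in Group B and 4.08-fold in Group A.

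Of the 4 middle regions only the dlPFC differed from the mean of the rest, by 0.74 (interval 0.31 to 1.17, adjusted p = 0.0063, 38.1% called), with 5 of 6 animals higher. B6 was the exception, with 220 RPM in its dlPFC against a median of 443 RPM and a highest value of 600 RPM over the 6 animals. A fit on the dlPFC and the mean of the animal's other regions gave 0.66 with an adjusted p of 0.068. The HC (43.9% called), MC (30.9%) and PPC (23.8%) gave differences of 0.25, 0.31 and 0.15 for hsa-miR-7-5p, none called. Without the EC among the other regions, a setting chosen after its level had been seen, those of the HC and MC were 0.60 and 0.67 and were called (adjusted p = 0.014 and 0.018). In the HC the 6 animals ranged from 206 to 468 RPM with a median of 348 RPM, and in the MC the 5 animals measured 270, 673, 192, 486 and 294 RPM in B1, B2, B3, B5 and B6.

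**Figure D2:**
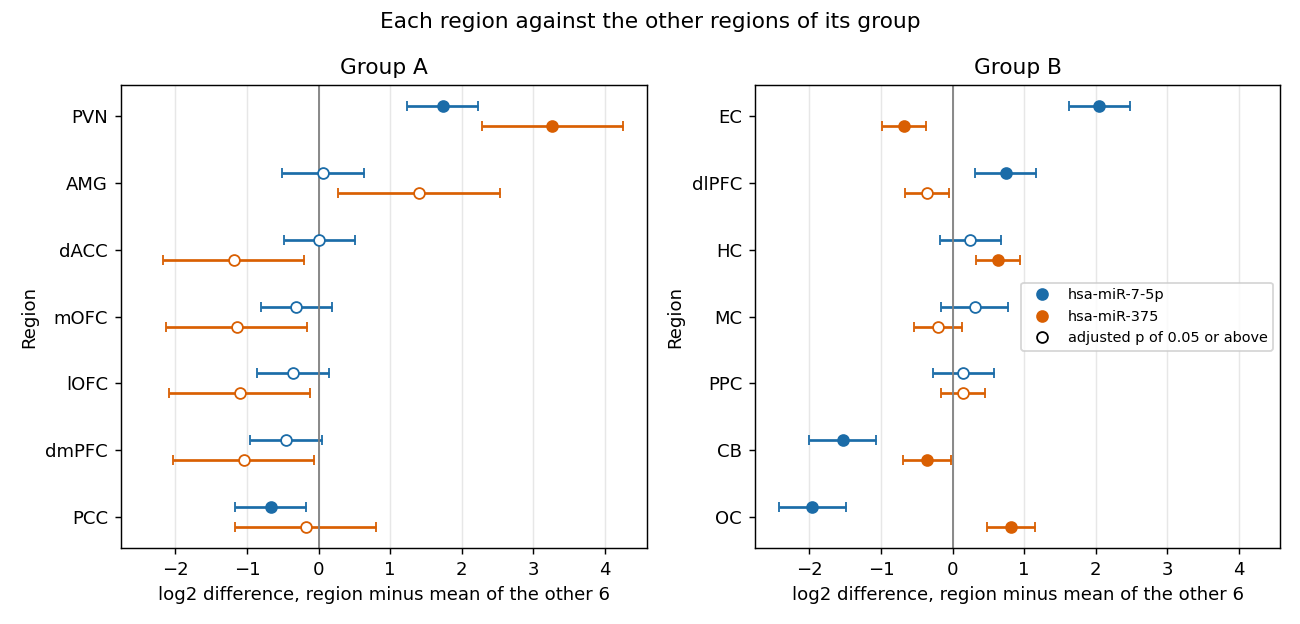
log2 difference of hsa-miR-7-5p (blue) and hsa-miR-375 (orange) between each region and the mean of the other 6 regions of its group, with 95% confidence intervals; open symbols have a limma adjusted p of 0.05 or above. Both miRNAs are higher in the PVN, by 1.73 and 3.26, whereas in the EC and OC they lie on opposite sides of 0.

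hsa-miR-375 was scarce in most of the brain. Its median over brain libraries was 32.2 RPM for Group A and 31.7 RPM for Group B, and outside the PVN and AMG its place among the 362 miRNAs ranged from 182 to 345. In the PVN it measured 306, 1284, 124 and 479 RPM in A1 to A4, a 10.3-fold spread between animals, against 1.61-fold for hsa-miR-7-5p in the same libraries. In the 20 cortical libraries of Group A it lay between 18.4 and 74.4 RPM, below every PVN library.

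Only the AMG overlapped the PVN. It held 112 RPM in A1, 701 RPM in A2 and 30.4 RPM in A3. The A2 library was thus above 3 of the 4 PVN libraries and the A3 library at the level of cortex. Both the highest PVN and the highest AMG value of hsa-miR-375 came from A2, and both the lowest from A3. For hsa-miR-7-5p the highest values of both regions came from A1, with 1097 RPM in the AMG, while the lowest came from A2 in the PVN and from A3 in the AMG (616 RPM).

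**Figure D3:**
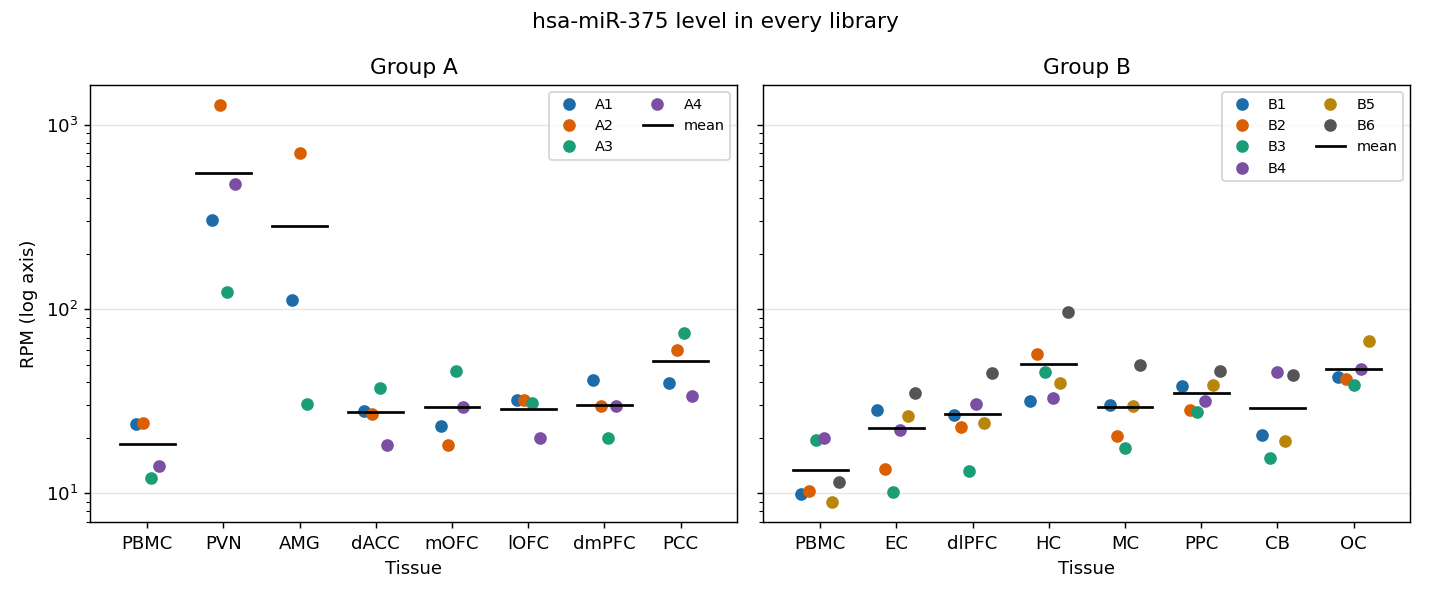
Level of hsa-miR-375 (RPM, log axis) in PBMC and each brain region of Group A (left) and Group B (right), 1 point per animal and a bar at the mean. The PVN libraries spread from 124 to 1284 RPM and the AMG libraries from 30.4 to 701 RPM, whereas no library of Group B exceeds 95.9 RPM.

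The PVN differed from the mean of the other regions by 3.26 (interval 2.28 to 4.25, adjusted p = 2.64e-06), the 4th largest difference of the 362 miRNAs, and by 2.74 relative to their median. Every animal was higher, by 2.92, 4.58, 1.73 and 4.17 in A1 to A4. Without the AMG library of A2 the value was 3.44, and without the AMG as a region 3.60, both chosen after the A2 value had been seen. Of the 6 pairs with the PVN, the 5 against cortex were called, by 2.95 to 3.82. The PVN minus AMG difference was 1.60 with an interval of 0.19 to 3.00 and an adjusted p of 0.051.

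In all 4 animals the PVN difference was larger for hsa-miR-375 than for hsa-miR-7-5p, by 0.73, 2.70, 0.02 and 2.99 in A1 to A4 (mean 1.61 ± 1.46, SD). An exact two-sided sign-flip test over the 4 animals gave p = 0.125, the smallest value that this test can give with 4 animals.

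In the PVN and AMG, libraries with much hsa-miR-375 also carried much of the choroid plexus and ciliated cell miRNAs. These were hsa-miR-204-5p, hsa-miR-211-5p, hsa-miR-1298-5p and hsa-miR-34c-5p, none of which was at 0 in any brain library. The PVN tissue was taken next to the third ventricle. Here the 4 miRNAs summed to 6312, 13392, 5359 and 8152 RPM in the PVN of A1 to A4 and to 4121, 6101 and 2113 RPM in the AMG of A1 to A3, against a median of 1497 RPM over the 23 libraries outside the PVN. In each of these regions A2 was highest and A3 lowest, as for hsa-miR-375. In the AMG the lowest place rests on the library of A3 that stood apart from the other AMG libraries. Without that library A2 still exceeded A1 in the AMG, for the sum and for hsa-miR-375. Outside the PVN and AMG the highest sum, 4257 RPM, was in the mOFC of A3, which also held the most hsa-miR-375 of the 4 mOFC libraries (46.4 RPM). This is the other A3 library that the alternatives leave out. The part of such cells in the hsa-miR-375 values was not tested. In the HC of Group B all 4 rose, with a median of 1.01 beside 0.07 over all miRNAs, of which 29.0% rose and 43.9% were called. hsa-miR-34c-5p led at 3.28 (adjusted p = 2.14e-11). The sum of the 4 was highest in B6 (3775 RPM), the library with the most hsa-miR-375 there. In the CB they summed to 3270 to 4235 RPM with hsa-miR-375 at 15.5 to 45.6 RPM. Of the 4, only hsa-miR-204-5p rose there, by 1.59 (adjusted p = 1.47e-11), and the other 3 fell. Over all 362 miRNAs of the CB 89 rose and 215 fell, with a median of -0.49. The OC did not follow, with a sum of 1165 to 1400 RPM and hsa-miR-375 at 38.8 to 67.3 RPM. Nor did the PCC, with a sum of 1034 to 1510 RPM and hsa-miR-375 at 33.9 to 74.4 RPM. The EC, lowest of Group B for hsa-miR-375, held a sum of 1515 to 2189 RPM. Neuronal miRNAs were lower in the PVN, at 32929 to 43574 RPM against 46135 to 69510 RPM in the other regions, and the 5 leukocyte miRNAs all rose there, beside 62.7% of all miRNAs. Under median of ratios 2 of the 5 rose, beside 34.8%, and under quantile normalization none rose and 1 fell. The 4 red cell miRNAs summed to 2039 to 3118 RPM in the PVN and 838 to 1677 RPM elsewhere in Group A, with 2 of 4 called higher. What part blood takes in the PVN values was not tested.

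Against the mean of the other regions hsa-miR-375 gave no call elsewhere in Group A. The AMG was 1.40 higher (interval 0.27 to 2.53, adjusted p = 0.094), a value that was 0.32 without the A2 library and 2.40 without A3 (adjusted p = 0.0010) or without its AMG and mOFC libraries (adjusted p = 0.0018). The PVN difference without these 2 libraries was 3.16 for hsa-miR-375 and 1.72 for hsa-miR-7-5p. The dACC, mOFC, lOFC and dmPFC differed by -1.19 to -1.05 from a mean that contains the PVN and AMG, with adjusted p between 0.11 and 0.58. The PCC, at 39.95, 60.2, 74.4 and 33.9 RPM, was the highest of the cortical regions, but none of the 10 pairs of cortical regions was called. Beside the 5 PVN pairs, the AMG differed from the dmPFC and lOFC, which makes 7 of 21 pairs. Without the AMG library of A2 the number was 6, and without the AMG and mOFC libraries of A3 it was 10.

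In Group B hsa-miR-375 varied little, by 2.23-fold between the lowest and highest region means, and its order differed from that of hsa-miR-7-5p, with the EC last and the OC next to first. The HC averaged 50.5 ± 24.1 RPM and the OC 47.6 ± 11.4 RPM, followed by the PPC at 35.1 ± 7.20, the MC at 29.5 ± 12.5, the CB at 29.0 ± 14.5, the dlPFC at 27.1 ± 10.5 and the EC at 22.6 ± 9.39 RPM (SD, n = 5 for OC, MC and CB and 6 for the others). In the OC, B1 to B5 measured 42.6, 41.9, 38.8, 47.5 and 67.3 RPM. In the EC the values were 28.3, 13.6, 10.1, 22.2, 26.4 and 35.1 RPM in B1 to B6. Only the EC value of B6 came near the lowest OC value, and the groups did not overlap.

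The OC, which with the CB held the least hsa-miR-7-5p of Group B, was higher for hsa-miR-375 by 0.81 (interval 0.48 to 1.15, adjusted p = 0.00013) in 5 of 5 animals. The EC, highest for hsa-miR-7-5p, differed for hsa-miR-375 by -0.68 (interval -0.98 to -0.37, adjusted p = 0.00025) in 6 of 6. The HC was higher by 0.64 (interval 0.33 to 0.95, adjusted p = 0.00079) in 5 of 6, led by B6 with 95.9 RPM, against a median of 42.7 RPM and a lowest value of 31.9 RPM. The dlPFC difference was -0.35 with all 6 animals lower and an adjusted p of 0.060 in RPM that became 0.011 to 0.028 under the 4 other scalings. The MC and PPC differed by -0.20 and 0.14 and were not called.

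The direction of hsa-miR-375 in the CB depended on the scaling. In RPM it differed by -0.36 (interval -0.69 to -0.02, adjusted p = 0.044), with 4 of 5 animals lower and values of 20.6, 15.5, 45.6, 19.3 and 43.9 RPM in B1, B3, B4, B5 and B6. Relative to the median of all miRNAs it was 0.13 higher, and it was 0.11 to 0.36 higher with no call under median of ratios, quantile normalization, edgeR and DESeq2. Without B1, B3, B5 or B6 the difference was -0.36 to -0.23 and was not called.

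Of the 21 pairs of Group B 10 were called for hsa-miR-375, 5 of which included the OC. The HC and OC, highest and next in order, did not pass the test against each other (OC minus HC 0.15, interval -0.27 to 0.57), nor did any pair among the EC, dlPFC, CB and MC at the low end. Without the animal as a replicate block only 5 pairs were called.

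The other arm of a miR-7 hairpin, hsa-miR-7-1-3p, varied less than hsa-miR-7-5p between regions. It lay between 24.0 and 50.9 RPM in all brain libraries of Group A, and between 21.1 and 49.5 RPM in those of Group B outside the CB. In the PVN it measured 35.7, 41.6, 50.9 and 37.2 RPM in A1 to A4, 0.37 higher than the other regions in RPM (adjusted p = 0.0034), but the difference was -0.27 to -0.04 under the 4 other scalings. In the CB the arms moved in opposite directions. There hsa-miR-7-1-3p measured 79.4, 72.7, 68.4, 69.2 and 62.9 RPM in B1, B3, B4, B5 and B6, above every other brain library of the group, and was 1.07 higher (adjusted p = 5.91e-11) and 1.51 to 1.80 higher under the other scalings.

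The ratio of hsa-miR-7-5p to hsa-miR-7-1-3p, which does not depend on the scaling between libraries, therefore spanned a wide range. It was 39.9 to 89.5 in the PVN, against 9.75 to 51.7 in the other regions of Group A, and 13.4 to 45.1 in the EC, 1.39 to 4.19 in the OC and 1.18 to 1.85 in the CB. In PBMC it was 0.635 to 0.837 in Group A and 0.353 to 1.11 in Group B, so that in blood hsa-miR-7-5p was the less abundant arm in most animals. The log2 ratio in the PVN exceeded the mean of the other regions of the animal by 1.37 ± 0.51 (SD, n = 4, exact sign-flip p = 0.125, the smallest possible). In the CB the difference was -2.71 ± 0.25 (SD, n = 5, exact sign-flip p = 0.0625, again the smallest possible), with all 5 animals between -2.99 and -2.42. Since hsa-miR-7-5p can come from several hairpins and hsa-miR-7-1-3p from only 1, the ratio cannot be read as the arm use of a single hairpin.

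**Figure D4:**
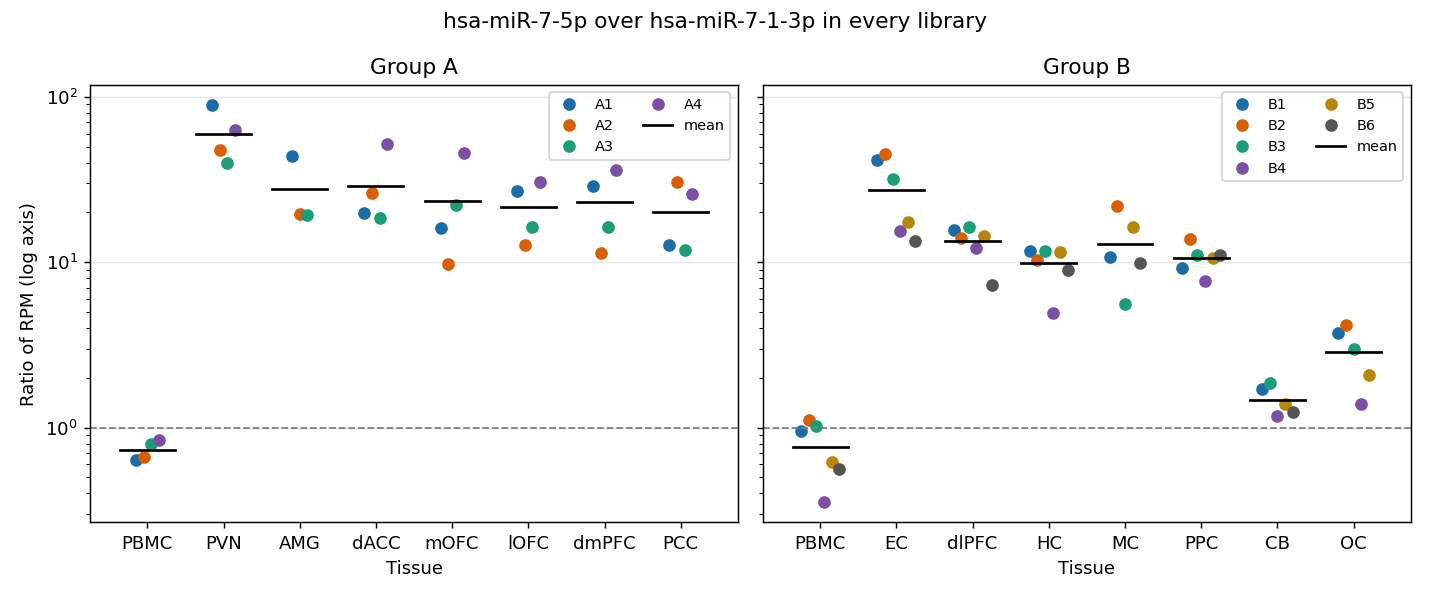
Ratio of hsa-miR-7-5p to hsa-miR-7-1-3p (RPM over RPM, log axis) in PBMC and each brain region of Group A (left) and Group B (right), 1 point per animal, a bar at the mean and a dashed line at a ratio of 1. The ratio is 39.9 to 89.5 in the PVN, 1.18 to 1.85 in the CB and near or below 1 in PBMC.

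hsa-miR-671-5p, which directs cleavage of CDR1as, moved in the same direction as hsa-miR-7-5p in the PVN, EC, CB and OC. In the PVN it measured 22.2, 20.2, 29.1 and 20.6 RPM in A1 to A4, above the 5.16 to 17.7 RPM of the other regions, and was 1.13 higher (adjusted p = 5.07e-07). That was the 90th largest difference of the 362 miRNAs, in a region where their median was 0.52 and 62.7% of them were called higher. In the EC it measured 14.9, 11.5, 13.5, 8.94, 13.0 and 13.5 RPM in B1 to B6 and was 1.01 higher (adjusted p = 6.33e-07), although the dlPFC reached 14.0 RPM in B5. In the CB it was close to the counting floor, with 1.13 to 2.49 RPM from 4 to 15 reads, and differed by -1.58 (adjusted p = 1.58e-10). In the OC, at 2.38 to 6.65 RPM from 4 to 13 reads, it differed by -0.71 (adjusted p = 0.00052). The direction was kept in these 4 regions under the 4 other scalings, with all calls but that of the CB under quantile normalization (-0.29, adjusted p = 0.061). It was also called in the dlPFC (0.57, adjusted p = 0.0034) and PCC (-0.52, adjusted p = 0.0074), as hsa-miR-7-5p was. In the dmPFC it was called lower (-0.43, adjusted p = 0.042) where hsa-miR-7-5p was not called. The PCC and dmPFC calls were lost under the 4 other scalings, and the dlPFC call under quantile normalization.

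Across the 39 brain libraries of Group B the Pearson correlation of log2(RPM + 1) between hsa-miR-7-5p and hsa-miR-671-5p was 0.82, the 8th highest of all miRNAs, and across the 27 of Group A it was 0.64, the 96th highest. These libraries share animals and regions and are no independent points. With hsa-miR-7-1-3p the correlation came to 0.20 for Group A and -0.26 for Group B (over the 7 region means 0.88 and -0.41), and with hsa-miR-375 it was 0.58 and -0.44.

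**Figure D5:**
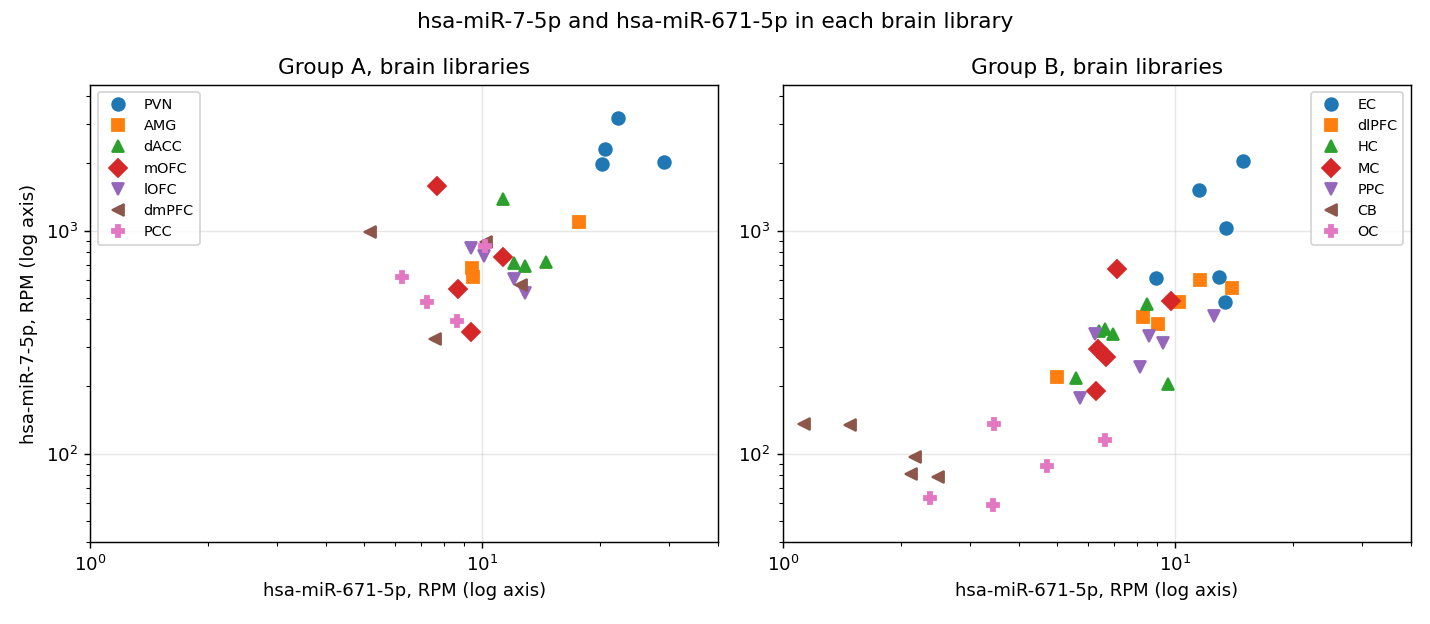
hsa-miR-7-5p against hsa-miR-671-5p (both RPM, log axes) in each brain library of Group A (left) and Group B (right), coloured by region. The PVN and EC libraries lie at the upper right, with 20.2 to 29.1 and 8.94 to 14.9 RPM of hsa-miR-671-5p, and the CB libraries at 1.13 to 2.49 RPM on the lower left.

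The 3 miRNAs most like hsa-miR-7-5p over the brain libraries were hsa-miR-379-5p, hsa-miR-125b-2-3p and hsa-miR-541-3p in Group A, with correlations of 0.95, 0.89 and 0.88 over 27 libraries. In Group B they were hsa-miR-370-3p, hsa-miR-767-5p and hsa-miR-105-5p, at 0.88, 0.86 and 0.84 over 39 libraries. For hsa-miR-375 they were hsa-miR-574-3p, hsa-miR-1260a and hsa-miR-34c-5p in Group A, all at 0.87 to 0.88. In Group B no miRNA came close to it: hsa-let-7i-3p led with 0.53, followed by hsa-miR-21-3p and hsa-let-7i-5p at 0.49 and 0.48.

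Listed beside the CDR1as circuit were hsa-miR-671-5p and the opposite arms hsa-miR-671-3p and hsa-miR-7-1-3p. Of these, only hsa-miR-671-5p is described above as acting on CDR1as. In the PVN 3 of 3 were higher, where 62.7% of all miRNAs were, with a median of 0.81 beside 0.52 over all miRNAs. Under median of ratios only hsa-miR-671-5p was called. In the EC 2 of 3 rose (median 0.55 beside 0.21, 63.5% of all miRNAs called), in the CB 1 rose and 2 fell (median -0.95 beside -0.49, 84% called), and in the OC 1 fell (median -0.15 beside -0.18, 51.7% called). In the PVN 72.7% of all miRNAs were called. hsa-miR-671-3p, the other arm of the miR-671 hairpin, was 0.81 higher in the PVN (adjusted p = 0.00021) and differed by -0.95 in the CB (adjusted p = 2.30e-09), while in the OC it differed by 0.02 (adjusted p = 0.88). Under the 4 other scalings the PVN difference was 0.10 to 0.39, called in edgeR only, and the CB difference -0.56 to -0.19, with the call lost under quantile normalization (adjusted p = 0.13).

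Of 10 miRNAs listed for hormone-secreting cells, 7 rose and 1 fell in the PVN, so 8 were called where 72.7% of all miRNAs were, and their median was 0.55 beside 0.52 over all miRNAs. Under median of ratios 3 rose and 3 fell. Its members that rose most were hsa-miR-182-5p, at 3.12 (adjusted p = 1.59e-07), hsa-miR-204-5p, at 1.75 (adjusted p = 3.64e-06), which is also a choroid plexus miRNA, and hsa-miR-376a-3p, at 1.00 (adjusted p = 3.11e-06). hsa-miR-124-3p, a general neuronal miRNA, was the member that fell, by 1.44 on the log2 scale (adjusted p = 3.76e-08). In the EC 4 rose and 1 fell (median 0.24 beside 0.21, 63.5% of all miRNAs called), in the CB 6 rose and 3 fell (median 0.38 beside -0.49, 84% called) and in the OC 1 rose and 3 fell (median 0.05 beside -0.18, 51.7% called).

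Blood held far less hsa-miR-7-5p than brain, in all 10 animals. In Group A, PBMC measured 28.4, 31.6, 36.3 and 29.6 RPM in A1 to A4, and the mean of the brain libraries of the same animals 1087, 773, 827 and 1292 RPM. In Group B, PBMC ranged from 28.7 to 76.3 RPM with a median of 52.9 RPM, and the brain means from 252 to 557 RPM with a median of 381 RPM. In Group A the PBMC values lay below every brain library. In Group B they overlapped only with 2 libraries of the OC, at 58.6 and 63.1 RPM.

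In the fit, PBMC minus brain for hsa-miR-7-5p came to -4.91 for Group A (interval -5.43 to -4.39, adjusted p = 2.30e-06, 89% of miRNAs called) and to -2.97 for Group B (interval -3.26 to -2.67, adjusted p = 1.71e-07, 92% called). Over all miRNAs the median was -1.60 for Group A and -1.41 for Group B. Relative to it hsa-miR-7-5p stood at -3.31 for Group A and -1.56 for Group B. All miRNAs were kept by their reads in brain, with no such rule for blood. Neither this median nor the share called is therefore a neutral baseline for blood against brain.

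hsa-miR-375 was low in PBMC but closer to its level in brain. In Group A, PBMC measured 23.7, 24.0, 12.1 and 14.1 RPM in A1 to A4, and the brain means of these animals 83.2, 308, 52.0 and 102 RPM. In Group B, PBMC ranged from 8.94 to 20.1 RPM with a median of 10.9 RPM, and the brain means from 24.1 to 52.6 RPM with a median of 33.2 RPM. PBMC minus brain came to -2.54 for Group A (interval -3.35 to -1.74, adjusted p = 0.00038) and to -1.34 for Group B (interval -1.93 to -0.76, adjusted p = 0.0011), with all animals lower.

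In Group A 5 brain libraries, and in Group B 6, lay below the highest PBMC value. Relative to the median of all miRNAs, which were kept by reads in brain only, hsa-miR-375 stood at -0.94 for Group A and 0.07 for Group B. Under quantile normalization it stood at -0.63 for Group A and 0.59 for Group B, neither called. In Group A it also lost its call with all libraries taken as separate values (-1.54) and in edgeR (-1.48). Of the 2 partners, hsa-miR-7-1-3p was higher in PBMC in both groups, by 0.36 and 0.84 (adjusted p = 0.048 and 0.00015), and hsa-miR-671-5p differed by -1.02 in Group A (adjusted p = 0.0021) and 0.03 in Group B (adjusted p = 0.91). For hsa-miR-671-5p in Group A the call was lost in DESeq2 (-0.29), with median of ratios (-0.31) and in edgeR (-0.28), and the sign turned under quantile normalization (2.09, adjusted p = 6.48e-06). In Group B that setting gave 2.56 (adjusted p = 1.18e-06). These values rest on few reads of hsa-miR-671-5p in PBMC, 6 to 29 in Group A and 3 to 10 in Group B.

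Whether an animal with more of a miRNA in blood also has more in brain was asked over the 6 animals of Group B. For hsa-miR-7-5p, B1, B3 and B2 had the most in PBMC (76.3, 68.0 and 59.3 RPM) and also the most in brain (525, 407 and 557 RPM), and B4 and B6 had the least in both. The brain means do not cover the same regions in all animals. Those of B2, B4 and B6 rest on 6 regions, without the CB, MC and OC in turn. The mean of B2 thus lacks a region that held only 78.4 to 136 RPM in the other animals. Pearson's r was 0.85 (exact permutation p = 0.044, adjusted p = 0.62 over 340 miRNAs) and Spearman's rho 0.83 (exact permutation p = 0.058, adjusted p = 0.71). Without B1 and B4, the animals farthest from the PBMC median, r was 0.69. For hsa-miR-375, r was -0.30 (exact permutation p = 0.58, adjusted p = 0.93) and rho 0.09 (exact permutation p = 0.92, adjusted p = 0.98), and r was 0.75 without B3 and B4.

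By this exact permutation test 0% of the 340 miRNAs passed the adjusted threshold for r and none did for rho, with 25 at an unadjusted p under 0.05. The relation of hsa-miR-7-5p thus fails the correction, and neither miRNA can be said to be related between blood and brain. Group A has 4 animals, too few for the test. Its highest brain mean of hsa-miR-7-5p, 1292 RPM in A4, came with 29.6 RPM in PBMC, and its highest PBMC value, 36.3 RPM in A3, with a brain mean of 827 RPM.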

How the data were processed

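Total small RNA of PBMC and dissected brain was prepared by the authors with miRNeasy and Illumina Truseq small RNA kits and sequenced on a GAIIx. Per the study's methods, the authors trimmed reads, aligned them with bowtie in mirDeep2 to human mature miRNAs of miRBase with no mismatch, left out 3 brain libraries with few reads and kept miRNAs by reads in brain, with no such rule for blood. The labels list repeat runs of a library, while the deposited table holds 1 column per library. Reads with a baboon-specific base were therefore lost from the values. Tissue of the AMG was not obtained from A4, and no CB of B2, MC of B4 or OC of B6 was analysed here. As deposited, RPM are reads per miRNA relative to a library's sum of mapped miRNA reads. The deposited total read count per miRNA is a sum over all libraries. Each library's total was recovered as the number that turns all its RPM values of 200.0 or less into whole reads, which held for 100% of them with a tolerance of 0.1 reads. Summed over libraries, the reads of both miRNAs equalled their deposited total read counts, 126275 and 15127. All columns of libraries were used.

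The fits used limma 3.58.1 on log2(RPM + 1) with region and animal as terms over all brain libraries of a group, contrasts of each region with the mean of the 6 others and of all 21 pairs, and Benjamini-Hochberg adjustment over 362 miRNAs at 0.05. PBMC were compared with the mean RPM of the animal's brain libraries. The labels name the animal of each library, so the pairing is from the same animal. The median correlation of deviations between regions was 0.44 within animals in both groups, and -0.13 and -0.11 between animals (Groups A and B). Exact sign-flip and permutation tests were run over animals in scipy, two-sided. edgeR 4.0.16 and DESeq2 1.42.0 on the recovered reads served as alternatives only. Other alternatives were quantile normalization, median of ratios, a minimum mean of 10 RPM, pseudocounts of 0.1 and 10 RPM, no replicate block, the AMG and mOFC of A3 left out, a fit on the region and the mean of the others, and each animal left out. The PVN contrast of Group A in limma, edgeR and DESeq2 and the permutation test of the correlation were tried on simulated data. The other fits and tests were not. The miRNAs and lists were chosen with earlier results of these data known. Beside both miRNAs, hsa-miR-7-1-3p, hsa-miR-671-5p, the 3 most correlated miRNAs of each group and members of the lists were named. The labels call the PVN hypothalamus, and they give the OC and EC libraries of B2 the same index. Without B2 the difference of hsa-miR-7-5p was 1.97 in the EC and -1.98 in the OC, and that of hsa-miR-375 was -0.60 in the EC and 0.83 in the OC, all still called.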

Additional observations from a re-analysis of the deposited data

Results flagged for a closer look

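The PBMC minus brain difference of hsa-miR-7-5p came to -4.91 for Group A and -2.97 for Group B, a difference of -1.95 (exact permutation p = 0.0048 over 210 splits of the 10 animals, adjusted p = 0.0095 over both miRNAs). All 4 animals of Group A lay between -5.40 and -4.47, and all 6 of Group B between -3.26 and -2.56. For hsa-miR-375 the difference between the groups was -1.20 (exact permutation p = 0.043, adjusted p = 0.043). The animals of Group A lay between -3.63 and -1.77 and those of Group B between -2.09 and -0.28. The test over both groups was chosen with the values known. Different brain regions entered the mean in each group, so group, region, sex, age, euthanasia and freezing cannot be told apart in these values. The hsa-miR-375 difference lost significance under median of ratios (-0.76, p = 0.16) and without A2, A3, A4, B1, B2, B3 or B4 in turn, where it ran from -1.38 to -0.84. That of hsa-miR-7-5p stayed past the threshold without any 1 animal, at -2.10 to -1.79.

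Among 60 groups of 4 to 6 libraries examined, 3 held a value far from the others, the number that chance alone gives at about 1 in 20. hsa-miR-7-5p was 1388 RPM in the dACC of A4, against 696 to 723 RPM in the other 3 animals. hsa-miR-375 was 20.01 RPM in the lOFC of A4, against 31.0 to 32.2 RPM in the others. hsa-miR-671-5p was 9.79 RPM in the MC of B5, against 6.31 to 7.11 RPM in the others.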

How the results depend on the processing

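Of 711 recomputed values over 49 results, 656 kept their side of the threshold or, for counts, stayed close to the main count. The others were 27 lost calls, 22 gained calls, 1 moved count and 5 reversals. A change of sign counted as a reversal only where either value was called. Uncalled values among the 656 could thus change sign, as hsa-miR-7-5p did in the AMG with animals left out (-0.11 to 0.23). The sign-flip tests could not pass the threshold under any alternative. By this rule 33 results were unchanged under every alternative run. Among them were both PVN differences and those of hsa-miR-7-5p in the EC, CB, OC and PBMC of both groups. Those of hsa-miR-375 in the EC, OC and HC were also among them. Causes were not tested.

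The replicate block changed these calls: with no replicate block the CB difference of hsa-miR-375 was -0.28 and the PCC difference of hsa-miR-7-5p -0.64, neither called, and 5 pairs in place of 10 were called for hsa-miR-375 in Group B. It changed no other call. hsa-miR-375 in the CB reversed under median of ratios (0.11), quantile normalization (0.36), edgeR (0.11) and DESeq2 (0.16), and in PBMC of Group B under quantile normalization (0.59). For the PCC, hsa-miR-7-5p lost its call under median of ratios (-0.46), quantile normalization (-0.52), edgeR (-0.42) and DESeq2 (-0.38). PBMC of Group A lost that of hsa-miR-375 under quantile normalization (-0.63), edgeR (-1.48) and all libraries as separate values (-1.54). Gained calls for hsa-miR-375 were the AMG in edgeR (1.69) and DESeq2 (1.75), and the dlPFC under median of ratios (-0.48), quantile normalization (-0.56), edgeR (-0.47) and DESeq2 (-0.51).

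A fit on the region and the mean of the others lost the calls of hsa-miR-375 in the CB (-0.34) and of hsa-miR-7-5p in the PCC (-0.68) and dlPFC (0.66). It gained those of hsa-miR-375 in the dACC (-1.14), dlPFC (-0.35), dmPFC (-0.99) and lOFC (-1.06) and of hsa-miR-7-5p in the lOFC (-0.36). Without the AMG and mOFC libraries of A3, hsa-miR-375 was called in the AMG (2.40), dmPFC (-1.15), lOFC (-1.21) and mOFC (-1.61). Without the EC as a region, chosen after seeing the data, hsa-miR-7-5p was called in the HC (0.60) and MC (0.67) and hsa-miR-375 in the dlPFC (-0.48).

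With each animal left out in turn, hsa-miR-375 ranged from 0.32 to 2.40 in the AMG (called without A3), from -0.58 to -0.23 in the CB, from -0.39 to -0.28 in the dlPFC (called without B4), and from -1.34 to -0.89 in the lOFC and -1.61 to -0.64 in the mOFC (both called without A3). hsa-miR-7-5p in the PCC ranged from -1.04 to -0.44. Depth limits hsa-miR-375 in PBMC of Group B (7 to 21 reads). It also limits hsa-miR-671-5p in PBMC of Group B (3 to 10 reads), the CB (4 to 15 reads) and the OC (4 to 13 reads).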
